A study of Homo sapiens with 4 samples.

Results

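The p53 family and its target genes are described here through 33 genes, 2 of them family members and the others known targets of p53, chosen by name as rows of a deposited table of transcript abundances that holds 43622 genes. The RNA came from PC3, an established line of human prostate adenocarcinoma cells, labelled wild type for genotype, and from PC3 cells with a short hairpin RNA (shRNA) against p14ARF, named PC3-shp14ARF. Unmodified cells received the solvent DMSO (Ctrl) or MLN4924 at 1 µM (MLN), and the shRNA cells likewise received DMSO (shARF) or MLN4924 at 1 µM (Both), so that there were 4 conditions, each kept for 3 days and measured in 3 libraries. The shRNA was brought in by a stable retrovirus with selection, and no control shRNA is named for the Ctrl and MLN cells. The series' own design text calls the PC3-shp14ARF cells a knockout although their labels name an shRNA. PC3 cells are known to lack functional p53, a limit that all 4 groups share.

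The transcription factor p53 is switched on by DNA damage and other stresses and raises genes that halt the cell cycle, repair DNA or start apoptosis, together with genes that switch p53 off again, foremost MDM2. Its relatives p63 and p73 bind much the same DNA sites, and many p53 targets are also driven by other stress pathways. p14ARF, made from the CDKN2A locus, binds MDM2 and so stabilizes p53. MLN4924 blocks the enzyme that activates NEDD8 and thereby the cullin-RING ubiquitin ligases.

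CDKN2A, the target of the shRNA, was at 190.1, 183 and 177 TPM in the Ctrl libraries, 58.2, 58.7 and 60.9 in shARF, 100.4, 133 and 119 in MLN and 47.2, 41.2 and 54.01 in Both. Every library labelled with the shRNA was below every library without it at the same treatment (shARF vs Ctrl, log2 fold change −1.63, SE 0.035, adjusted p = 2.24e-05), as its label says. The level of the gene was reduced rather than absent. Levels are given per gene, so the p14ARF transcript was not measured apart from other transcripts of CDKN2A. Fold changes are differences of log2(TPM + 0.1), which makes changes of weakly expressed genes look smaller than they are. They were tested with limma over 19932 genes whose mean reached 0.1 TPM, and SE is the standard error of the log2 fold change. "Higher" and "lower" mean an adjusted p below 0.05 over all of these genes. TPM is a transcript level corrected for length and scaled to the same total in each library, and it carries no depth. The sources do not say whether the 3 libraries of a condition came from separate cultures, so p-values measure only the spread between these libraries, which may be technical. The epithelial and PC3 markers KRT8, KRT18, VIM, CD44 and EPCAM were expressed in every library, while the luminal prostate markers KLK3 and FOLH1 were listed at 0 in all 12. Of 4 markers of other cells (PTPRC, PECAM1, COL1A1, COL1A2), 4 were called in MLN vs Ctrl, 4 in Both vs shARF, 3 in shARF vs Ctrl and 3 in Both vs MLN. Their summed level ran from 24.5 to 27.8 TPM over the Ctrl libraries, 19.4 to 21.8 in MLN, 54.7 to 65.6 in shARF and 10.3 to 11.2 in Both. PTPRC, the leukocyte marker, was listed at 0 in 4 libraries and never exceeded 0.322 TPM. The part of these markers in the members' changes was not tested.

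To show where exact copies of the p53 motif lie close to the start of these genes, RefSeq promoter windows were searched for the p53 decamer. The windows (GRCh38.p14) ran from 250 bases before to 50 after each start. The decamer reads 3 purines, C, A or T, A or T, G and 3 pyrimidines and is its own reverse complement. No mismatch was allowed, so decamers that depart from this pattern, in MDM2 or any other member, were not counted. A full p53 element is a pair of such decamers separated by at most 13 bases. A single decamer, called a site below, is only a part of that element. Windows were found for 28 of the 33 members, some with several starts, 40 windows in all. The site lay in 5 of these 40 windows (12.5%), against 2329 of all 35116 windows of 300 bases (6.63%). A pair of sites separated by at most 13 bases lay in 1 member window, that of DDB2, and in 10 windows of all (0.0285%). The matching windows of SESN1, FDXR, AEN and PLK2 held a single site each and no pair without a mismatch. The 5 stretches of 30 bases that hold a site are shown because they are the only exact matches in the members' windows. They are written 5′ to 3′ on the gene's strand, with the sites in capitals.
SESN1: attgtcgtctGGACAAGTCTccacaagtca
FDXR: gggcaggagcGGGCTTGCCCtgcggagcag
DDB2: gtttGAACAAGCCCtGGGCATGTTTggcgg
AEN: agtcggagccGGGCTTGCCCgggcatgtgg
PLK2: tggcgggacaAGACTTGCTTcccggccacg
These stretches lie on GRCh38.p14 at chr6:109009018-109009047 (minus strand), chr17:74872986-74873015 (minus), chr11:47214975-47215004 (plus), chr15:88621296-88621325 (plus) and chr5:58460199-58460228 (minus). The site of SESN1 begins 49 bases before the start, that of FDXR 11, that of AEN 34 and that of PLK2 132 bases before it, while the first of the DDB2 sites begins 5 bases after the start and the spacer in this pair is 1 base. The FDXR and AEN sites have the same 10 letters. A match describes the letters in these windows and no binding was measured. A window without a match is not shown to lack a p53 element.

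MLN vs Ctrl asks which members respond to MLN4924 in unmodified cells. Of the 31 members tested, 18 were higher (58.1%) and 5 lower (16.1%), with 8 not called. Over all genes tested 32.2% were higher and 29.4% lower. TP73 and SPATA18 were under the filter of 0.1 TPM and were not tested. In PC3-shp14ARF cells (Both vs shARF), 15 members were higher (48.4%) and 9 lower (29.0%), against 28.3% and 32.8% of all genes. The median log2 fold change of the members was 0.38 in MLN vs Ctrl, where that of all genes was 0.052, and 0.40 in Both vs shARF, where that of all genes was −0.038. The members' median in Both vs shARF was 0.21 without Both replicate 2, 0.19 at a pseudocount of 1 and 0.23 under a filter of 1 TPM in place of 0.1, above that of all genes each time. Beyond a log2 fold change of 2 in either direction there were 2 members in MLN vs Ctrl, GADD45A and PLK3, against 9.43% of all genes, and 0 in Both vs shARF, against 9.19%. TPM is a share of each library's total. In bulk RNA a lower share from fewer cells expressing a gene and one from less of its RNA per cell cannot be told apart.

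**Figure D1:**
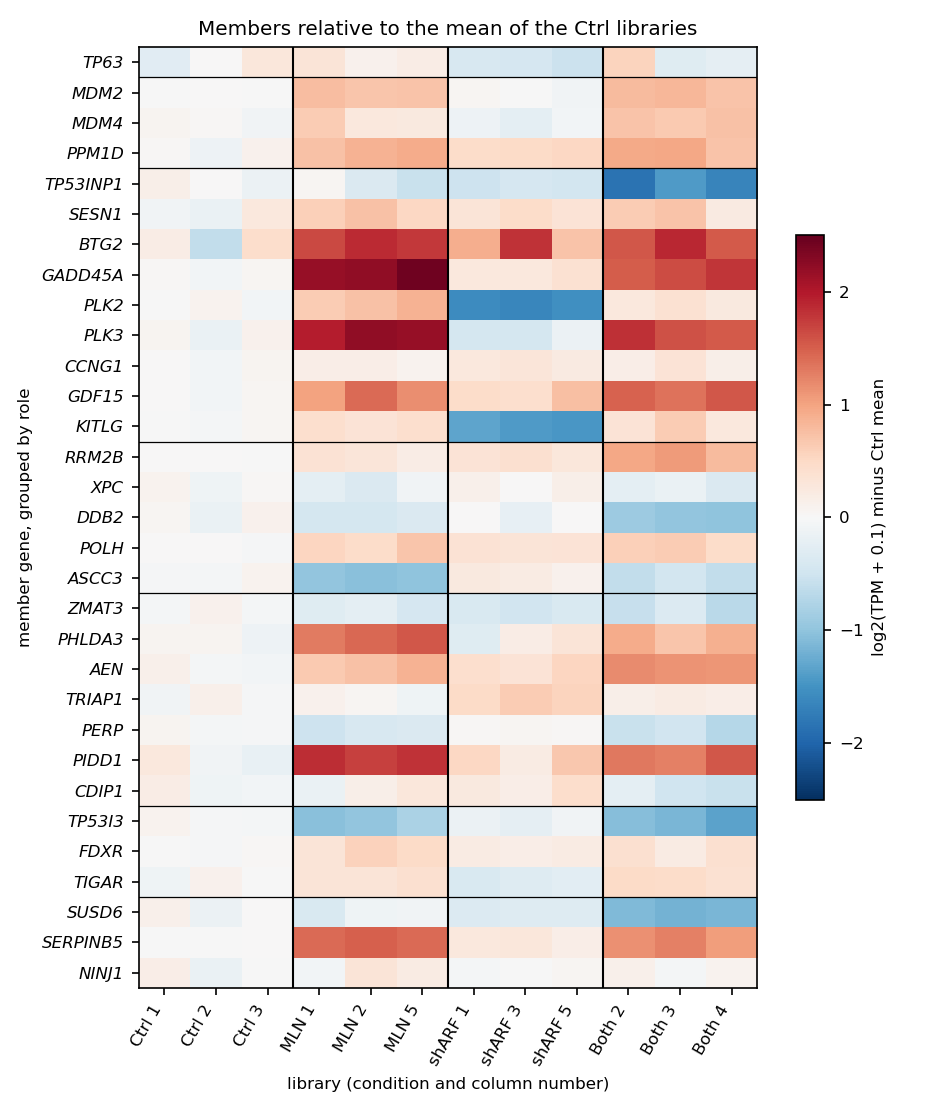
Level of each of the 31 members tested in each of the 12 libraries, as log2(TPM + 0.1) minus the mean of the Ctrl libraries (color scale from −2.5 to 2.5), with rows grouped by role and columns by condition. GADD45A, PLK3 and PIDD1 are high in all MLN and Both libraries, PLK2 and KITLG are low only in the shARF libraries, and TP53INP1 is lowest in the Both libraries.

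**Figure D2:**
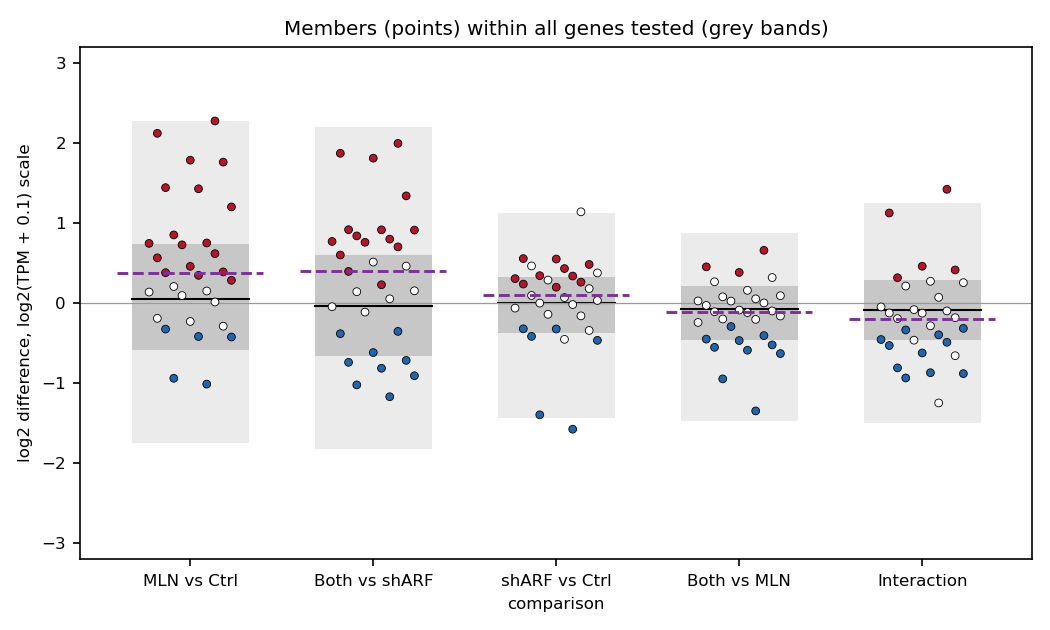
Log2 difference of the 31 members (points, red higher, blue lower, white not called) in the 5 comparisons, over the central 50% (dark) and 90% (light) of all 19932 genes tested. The dashed line is the members' median and the black line that of all genes. The members' median lies above that of all genes in both drug comparisons (0.38 and 0.40) and below it in the interaction (−0.19). In Both vs MLN (−0.11) it lies below that of all genes with all libraries included, an order that turns when MLN replicate 2 or Both replicate 3 is left out.

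The drug comparisons MLN vs Ctrl and Both vs shARF share no library. Of the 18 members raised in unmodified cells, 15 were also higher in PC3-shp14ARF cells, which is 83.3% of the first list and 100% of the second. Over all genes the shared genes were 68.2% and 77.6% of the corresponding lists. Of the 5 members lower in PC3 cells, 4 were lower in PC3-shp14ARF cells (80.0%), and these were 44.4% of the 9, against 77.4% and 69.5% over all genes, so the first share was near that of all genes and the second below it. Opposite calls were made for 0 members and were few among all genes, 276 of the 6420 higher in MLN vs Ctrl and 179 of the 5863 lower, so a count of 0 is near that background.

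**Figure D3:**
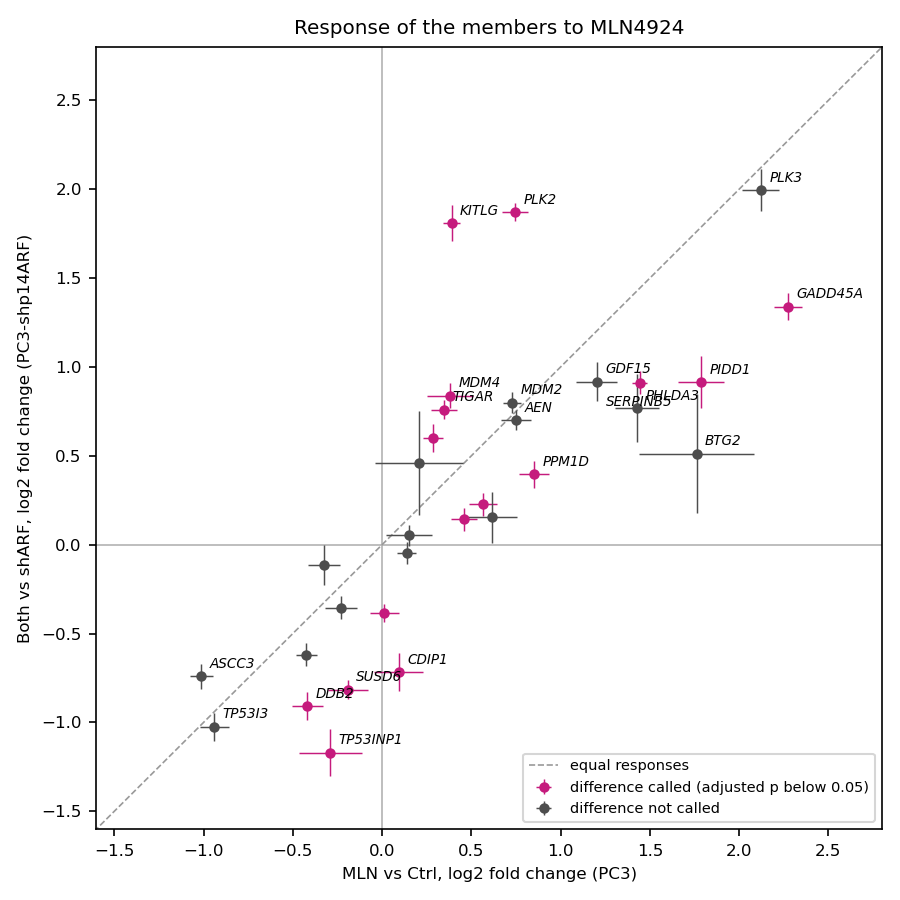
Response of the 31 members to MLN4924 in PC3 cells (x axis) and PC3-shp14ARF cells (y axis), each as log2 fold change with its standard error (SE). Points on the dashed line respond equally. The 16 points in magenta have a difference between the responses at an adjusted p below 0.05, and KITLG and PLK2 lie furthest above the line.

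Neither family member was at a high level. TP63, the gene of p63 and a regulator of basal epithelial cells, was at 0.147, 0.201 and 0.265 TPM in the Ctrl libraries, 0.127, 0.125 and 0.106 in shARF, 0.277, 0.222 and 0.243 in MLN and 0.342, 0.143 and 0.157 in Both. Its libraries overlapped between Ctrl and MLN and between MLN and Both, with Both replicate 2 the highest of all, and TP63 was not called in any of the 5 comparisons. The largest of its differences was that of Both vs shARF (log2 fold change 0.46, SE 0.29, adjusted p = 0.219), where the groups did not overlap, and that of shARF vs Ctrl (−0.45, adjusted p = 0.0887) was called without Ctrl replicate 1. TP73, the gene of p73, was listed at 0 in 11 libraries and at 0.0222 TPM in MLN replicate 2. Of 22 tested genes linked to p63 in epithelia, 6 were higher and 13 lower in MLN vs Ctrl, and 8 were higher and 11 lower in Both vs shARF, which is 27.3% and 59.1%, then 36.4% and 50%, against 32.2% and 29.4%, then 28.3% and 32.8% of all genes. Among them KRT17, a basal keratin, was at 0.182 ± 0.124 TPM in Ctrl, 0.207 ± 0.0361 in shARF, 63.4 ± 14.2 in MLN and 49.02 ± 3.25 in Both, with a rise in both drug comparisons (adjusted p = 1.73e-05 in MLN vs Ctrl and 8.79e-07 in Both vs shARF). LAMA3, a laminin chain, fell in both (log2 fold change −3.06, adjusted p = 3.68e-06, and −2.04, adjusted p = 1.12e-05).

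The 3 negative regulators of p53 were higher under MLN4924 in both PC3 and PC3-shp14ARF cells, where 32.2% and 28.3% of all genes were higher. MDM2, the ubiquitin ligase that targets p53 for degradation, was at 14.3, 14.4 and 14.3 TPM in the Ctrl libraries, 14.8, 14.1 and 13.4 in shARF, 24.6, 23.1 and 23.6 in MLN and 24.98, 25.5 and 23.5 in Both. The MLN4924 libraries lay above all DMSO libraries with no overlap, and the shRNA libraries overlapped with the others at the same treatment (shARF vs Ctrl −0.019, adjusted p = 0.784, Both vs MLN 0.052, adjusted p = 0.515). The log2 fold change of MDM2 was 0.73 in MLN vs Ctrl (SE 0.048, adjusted p = 5.78e-05) and 0.80 in Both vs shARF (SE 0.058, adjusted p = 8.39e-05). The difference between these responses was 0.071 (adjusted p = 0.581). MDM4, which binds p53 and blocks its activation domain, was at 6.18 ± 0.362 TPM in Ctrl, 5.60 ± 0.344 in shARF, 8.13 ± 1.33 in MLN and 10.1 ± 0.252 in Both (mean ± SD, n = 3). It was higher in Both vs shARF (log2 fold change 0.84, SE 0.071, adjusted p = 0.000153). Its rise in MLN vs Ctrl (0.38, adjusted p = 0.0431) was lost when Ctrl replicate 1, 2 or 3 or MLN replicate 1 or 2 was left out, with an adjusted p from 0.00839 to 0.174 across 14 alternatives. PPM1D, a phosphatase that removes activating phosphates from p53 and its kinases, was at 14.04 ± 1.17 TPM in Ctrl, 19.6 ± 0.390 in shARF, 25.4 ± 1.75 in MLN and 25.9 ± 2.47 in Both. It was higher in MLN vs Ctrl (0.85, adjusted p = 0.000305), in Both vs shARF (0.40, adjusted p = 0.00531) and, without the drug, in shARF vs Ctrl (0.48, adjusted p = 0.00413).

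Of the 9 members that restrain the cell cycle and growth, 7 were higher and 0 lower in MLN vs Ctrl, and 5 were higher and 1 lower in Both vs shARF (all genes, 32.2% higher and 29.4% lower in MLN vs Ctrl, 28.3% and 32.8% in Both vs shARF). GADD45A, a stress protein that binds PCNA and cyclin-dependent kinase complexes, had the largest change of all members in MLN vs Ctrl. It lies on chromosome 1 at chr1:67685201-67688334 of GRCh38 (GENCODE) and was at 96.9, 90.5 and 97.9 TPM in the Ctrl libraries, 115, 115 and 123 in shARF, 430.4, 444 and 511 in MLN and 271, 296 and 327 in Both. The 4 groups did not overlap, and the order was Ctrl, shARF, Both and MLN. Its log2 fold change was 2.28 in MLN vs Ctrl (SE 0.078, adjusted p = 7.66e-06) and 1.34 in Both vs shARF (SE 0.076, adjusted p = 3.38e-05), and the response was smaller in PC3-shp14ARF cells (interaction −0.94, SE 0.11, adjusted p = 9.94e-05). PLK3, a stress-responsive polo-like kinase on chromosome 1 at chr1:44800377-44805990, was at 10.6, 8.99 and 10.9 TPM in the Ctrl libraries, 7.38, 7.41 and 9.17 in shARF, 39.7, 47.4 and 46.2 in MLN and 36.1, 30.6 and 29.6 in Both. Every MLN4924 library was above every DMSO library. The rise was 2.12 on the log2 scale in PC3 cells (SE 0.10, adjusted p = 2.08e-05) and 1.996 in PC3-shp14ARF cells (SE 0.12, adjusted p = 3.88e-05), just under the cutoff of 2. PLK3 passed that cutoff in Both vs shARF when shARF replicate 5, Both replicate 3 or Both replicate 4 was left out. No difference between the responses of PLK3 was called (interaction −0.13, adjusted p = 0.612).

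PLK2, a second stress-responsive polo-like kinase, and KITLG, the secreted ligand of the receptor KIT, followed another order of conditions. PLK2 lies on the minus strand of chromosome 5 at chr5:58453982-58460139, downstream of the promoter stretch shown above, and was at 40.9, 43.7 and 39.7 TPM in the Ctrl libraries, 13.8, 13.4 and 14.3 in shARF, 64.7, 68.7 and 75.4 in MLN and 50.03, 53.6 and 48.9 in Both. KITLG, on chromosome 12 at chr12:88492793-88580851, was at 55.04, 53.3 and 57.3 TPM in the Ctrl libraries, 22.2, 20.5 and 20.1 in shARF, 73.7, 69.6 and 73.6 in MLN and 69.8, 85.6 and 66.6 in Both. In both genes the shARF libraries were the lowest of all, with no overlap with any other group, and the MLN4924 libraries were above the DMSO libraries of the same cells. PLK2 was lower in shARF vs Ctrl (log2 fold change −1.58, SE 0.048, adjusted p = 5.43e-05) and rose more under the drug in PC3-shp14ARF cells than in PC3 cells (log2 fold change 1.87 against 0.75, interaction 1.13, SE 0.094, adjusted p = 6.33e-06). KITLG was likewise lower in shARF vs Ctrl (log2 fold change −1.40, SE 0.050, adjusted p = 7.47e-05) and rose more in PC3-shp14ARF cells (log2 fold change 1.81 against 0.39, interaction 1.42, SE 0.12, adjusted p = 5.73e-06). Both vs shARF and shARF vs Ctrl share the shARF libraries, so a low level there enters both values. Under the drug KITLG did not differ detectably between Both and MLN (0.025, adjusted p = 0.878), and PLK2 was lower in Both (−0.45, adjusted p = 0.00669). In the same libraries CDKN1A, the CDK inhibitor p21 and a p53 target outside the 33, was at 113 ± 9.41 TPM in Ctrl, 12.2 ± 0.824 in shARF, 344 ± 47.6 in MLN and 202 ± 18.3 in Both, also lowest in shARF.

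GDF15, a secreted stress cytokine of the TGF-beta superfamily, had the highest TPM of the members and was at 610.1, 579.6 and 623 TPM in the Ctrl libraries, 833, 813 and 1021 in shARF, 1219, 1616 and 1361 in MLN and 1679, 1558 and 1781 in Both. The 2 drug groups lay above both DMSO groups, and all shARF libraries were above all Ctrl libraries. GDF15 was higher in MLN vs Ctrl (log2 fold change 1.20, SE 0.11, adjusted p = 0.000244), in Both vs shARF (0.92, adjusted p = 0.000641) and in shARF vs Ctrl (0.55, adjusted p = 0.00937). BTG2, an antiproliferative adaptor of the mRNA deadenylation machinery, stayed below 1 TPM and was at 0.170, 0.0543 and 0.220 TPM in the Ctrl libraries, 0.343, 0.733 and 0.288 in shARF, 0.642, 0.763 and 0.711 in MLN and 0.597, 0.771 and 0.583 in Both. Its MLN libraries did not overlap with Ctrl (log2 fold change 1.76, SE 0.32, adjusted p = 0.00393), while shARF and Both overlapped because shARF replicate 3 was high, and Both vs shARF was not called (0.51, adjusted p = 0.233) unless that library was left out. At such a low level the fold change depends on the pseudocount. SESN1, a sestrin that restrains mTORC1, was higher in MLN vs Ctrl (0.62, adjusted p = 0.00965) and was not called in Both vs shARF (0.15, adjusted p = 0.391) except without Both replicate 4. CCNG1, cyclin G1, lay between 106 and 141 TPM in all libraries and was called only in shARF vs Ctrl (0.26, adjusted p = 0.00700).

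TP53INP1, a stress-induced cofactor of p53 and an autophagy protein, was the 1 cell cycle member that fell under the drug in PC3-shp14ARF cells. It was at 7.63, 6.88 and 6.18 TPM in the Ctrl libraries, 4.80, 5.09 and 4.95 in shARF, 7.15, 5.32 and 4.62 in MLN and 1.85, 2.52 and 2.11 in Both. The Both libraries were below all others, while MLN overlapped with Ctrl because MLN replicate 1 was as high as the Ctrl libraries. TP53INP1 was lower in Both vs shARF (log2 fold change −1.17, SE 0.13, adjusted p = 0.000534) and in Both vs MLN (log2 fold change −1.35, SE 0.20, adjusted p = 0.00524). In PC3 cells it was not called (−0.29, adjusted p = 0.206) except without MLN replicate 1. The difference between the responses was called (interaction −0.88, SE 0.23, adjusted p = 0.0119).

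**Figure D4:**
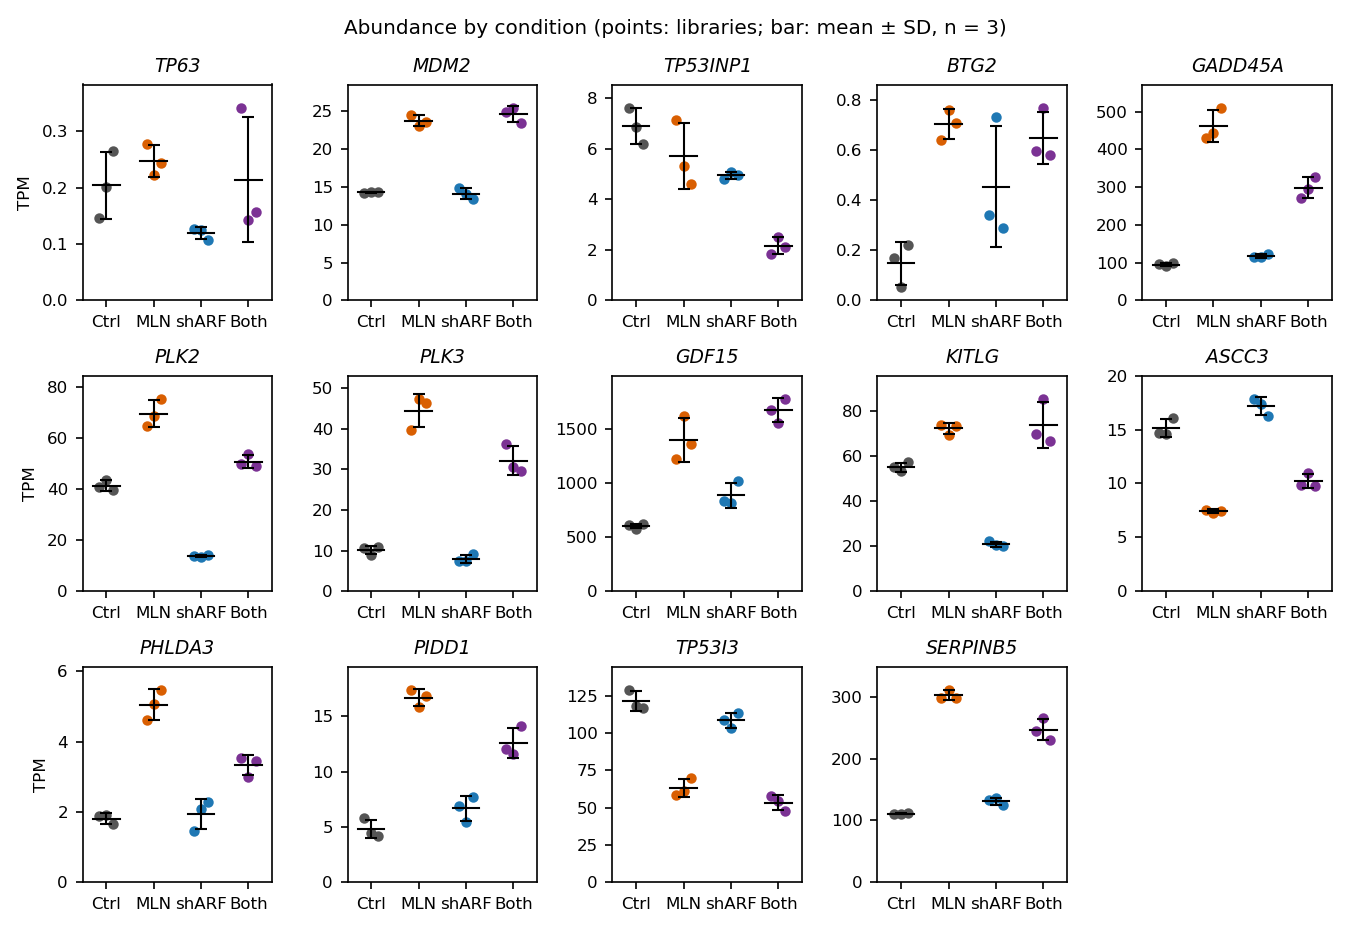
TPM of the 14 members with values in every library (TP73 left out), one panel each with its own y axis from 0; points are libraries, and bars are the mean ± SD of 3 libraries. PLK2 and KITLG are lowest in shARF, GADD45A, PLK3, PIDD1 and SERPINB5 are high in MLN and Both, and TP53I3 and ASCC3 are low there.

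Of the 5 members of DNA repair and nucleotide supply, 2 were higher and 2 lower in MLN vs Ctrl, and 2 were higher and 3 lower in Both vs shARF. As shares of the 5 these are 40%, 40%, 40% and 60%, against 32.2%, 29.4%, 28.3% and 32.8% of all genes. ASCC3, a helicase subunit used in alkylation repair and at collided ribosomes, was at 14.7, 14.6 and 16.1 TPM in the Ctrl libraries, 17.9, 17.4 and 16.2 in shARF, 7.56, 7.25 and 7.49 in MLN and 9.89, 11.005 and 9.77 in Both. All MLN4924 libraries lay below all DMSO libraries, and the MLN libraries were the lowest. ASCC3 was lower in MLN vs Ctrl (log2 fold change −1.01, SE 0.066, adjusted p = 5.40e-05) and in Both vs shARF (−0.74, adjusted p = 0.000241), and higher in Both than in MLN (0.45, adjusted p = 0.00743). DDB2 is the lesion-binding subunit of the UV damage sensor and itself a substrate receptor of a cullin ligase. DDB2 was the member with a pair of p53 decamers without a mismatch. It was at 15.4 ± 1.54 TPM in Ctrl, 14.7 ± 1.29 in shARF, 11.4 ± 0.339 in MLN and 7.76 ± 0.273 in Both. DDB2 was lower in MLN vs Ctrl (−0.42, adjusted p = 0.00663), fell further in Both vs shARF (−0.91, adjusted p = 0.000186), and was lower in Both than in MLN (−0.55, adjusted p = 0.00252). XPC, the other sensor of nucleotide excision repair, was lower in Both vs shARF (−0.35, adjusted p = 0.00410). In MLN vs Ctrl XPC was not called (−0.23, adjusted p = 0.0654), but it was without Ctrl replicate 2 or MLN replicate 5. RRM2B, the p53-inducible subunit of ribonucleotide reductase, was lowest in Ctrl and highest in Both, at 28.5 ± 0.118 TPM in Ctrl, 36.2 ± 1.44 in shARF, 34.8 ± 2.03 in MLN and 55.1 ± 5.43 in Both. It was called higher in MLN vs Ctrl (0.28, adjusted p = 0.00491), Both vs shARF (0.60, adjusted p = 0.00104), shARF vs Ctrl (0.34, adjusted p = 0.00143) and Both vs MLN (0.66, adjusted p = 0.00372). The MLN and shARF libraries of RRM2B overlapped. POLH, the translesion polymerase eta, was higher in MLN vs Ctrl (0.56, adjusted p = 0.00109) and in Both vs shARF (0.23, adjusted p = 0.0231), the latter lost when any shARF library or Both replicate 2 or 3 was left out, with an adjusted p from 0.00217 to 0.0729 across 13 alternatives.

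Of the 7 members of apoptosis and survival that were tested, 3 were higher and 2 lower in MLN vs Ctrl, and 3 were higher and 3 lower in Both vs shARF, counts near the shares of all genes (32.2% and 29.4%, then 28.3% and 32.8%). PIDD1, the scaffold of the complex that activates caspase-2, was at 5.78, 4.49 and 4.19 TPM in the Ctrl libraries, 6.87, 5.48 and 7.71 in shARF, 17.4, 15.9 and 16.9 in MLN and 12.1, 11.6 and 14.1 in Both. The MLN libraries were the highest and the Both libraries came next, with no overlap between these groups or with DMSO. PIDD1 was higher in MLN vs Ctrl (log2 fold change 1.79, SE 0.13, adjusted p = 8.44e-05) and in Both vs shARF (log2 fold change 0.91, SE 0.15, adjusted p = 0.00228), with a smaller response in PC3-shp14ARF cells (interaction −0.87, SE 0.20, adjusted p = 0.00648). PHLDA3, which competes with AKT for membrane lipids, was at 1.89, 1.91 and 1.65 TPM in the Ctrl libraries, 1.45, 2.08 and 2.28 in shARF, 4.61, 5.08 and 5.48 in MLN and 3.53, 3.001 and 3.44 in Both. Its MLN4924 libraries were above its DMSO libraries with no overlap. PHLDA3 was higher in MLN vs Ctrl (log2 fold change 1.43, SE 0.12, adjusted p = 0.000153). Its rise in Both vs shARF (0.77, adjusted p = 0.0139) was lost without Both replicate 2 or 4, with an adjusted p from 0.00121 to 0.0529 across 13 alternatives. AEN, an apoptosis-enhancing nuclease, was at 25.7 ± 2.02 TPM in Ctrl, 34.7 ± 2.29 in shARF, 43.3 ± 3.50 in MLN and 56.4 ± 1.49 in Both, and both drug comparisons and both shRNA comparisons called it higher, by 0.75 in MLN vs Ctrl, 0.70 in Both vs shARF, 0.43 in shARF vs Ctrl and 0.38 in Both vs MLN on the log2 scale (adjusted p = 0.000480, 0.000127, 0.00886 and 0.00957). PERP, a membrane protein of desmosomes, was lower in MLN vs Ctrl (−0.42, adjusted p = 0.00122) and in Both vs shARF (−0.62, adjusted p = 0.000363). ZMAT3, an RNA-binding zinc finger protein, was lower in MLN vs Ctrl (−0.33, adjusted p = 0.0221), a call lost without Ctrl replicate 2 or MLN replicate 5 with an adjusted p from 0.0177 to 0.220 across 14 alternatives. TRIAP1, an inhibitor of apoptosome formation, and CDIP1, a pro-apoptotic membrane protein, were not called in MLN vs Ctrl (0.013 and 0.093) and were lower in Both vs shARF (TRIAP1 −0.38, adjusted p = 0.000977, and CDIP1 −0.72, adjusted p = 0.00188). SPATA18, a protein of mitochondrial quality control, was at most 0.0637 TPM and was listed at 0 in all MLN and Both libraries.

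Among the 3 members of metabolism and redox, TP53I3, a quinone oxidoreductase, fell in both drug comparisons. It was at 129, 118 and 116 TPM in the Ctrl libraries, 109, 103 and 113 in shARF, 58.3, 61.4 and 70.1 in MLN and 57.97, 54.5 and 47.9 in Both. All drug libraries were below all DMSO libraries. The log2 fold change of TP53I3 was −0.94 in MLN vs Ctrl (SE 0.082, adjusted p = 0.000170) and −1.02 in Both vs shARF (SE 0.079, adjusted p = 0.000106), and their difference was −0.082 (adjusted p = 0.653). TIGAR, a phosphatase that lowers the glycolytic activator fructose-2,6-bisphosphate, was higher in MLN vs Ctrl (0.35, adjusted p = 0.00718) and more so in Both vs shARF (0.76, adjusted p = 7.57e-05; interaction 0.41, adjusted p = 0.00837). FDXR, the mitochondrial ferredoxin reductase, was higher in MLN vs Ctrl (0.46, adjusted p = 0.00245). In Both vs shARF FDXR was not called (0.14, adjusted p = 0.104) except without Both replicate 3 or under median-of-ratios scaling. Of the remaining members, SERPINB5, the tumor suppressor maspin, was at 111, 111 and 111 TPM in the Ctrl libraries, 133, 136 and 124 in shARF, 298, 311 and 297 in MLN and 245, 265 and 230.2 in Both. The order was Ctrl, shARF, Both and MLN with no overlap. SERPINB5 was higher in MLN vs Ctrl (log2 fold change 1.44, SE 0.041, adjusted p = 4.52e-06) and in Both vs shARF (log2 fold change 0.91, SE 0.065, adjusted p = 7.88e-05). SUSD6, a membrane protein with a sushi domain, was at 13.6 ± 1.27 TPM in Ctrl, 10.8 ± 0.0711 in shARF, 11.9 ± 1.30 in MLN and 6.08 ± 0.168 in Both, lower in Both vs shARF (−0.82, adjusted p = 6.63e-05) and not called in MLN vs Ctrl (−0.19, adjusted p = 0.182). NINJ1, which ruptures the plasma membrane of dying cells, lay between 26.4 and 36.9 TPM and was called in none of the 5 comparisons.

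The effect of the shRNA without the drug is given by shARF vs Ctrl. Here 10 members were higher (32.3%) and 6 lower (19.4%), with 15 not called, against 21.0% and 20.4% of all genes. The 10 higher members were PPM1D, GADD45A, CCNG1, GDF15, POLH, RRM2B, AEN, TRIAP1, FDXR and SERPINB5, with log2 fold changes from 0.20 (FDXR) to 0.56 (TRIAP1). The 6 lower members were PLK2, KITLG, TP53INP1, ZMAT3, SUSD6 and TIGAR. Those of TIGAR (−0.32, adjusted p = 0.0168) and SUSD6 (−0.32, adjusted p = 0.0215) were lost without Ctrl replicate 3, shARF replicate 1 or shARF replicate 3, and that of SUSD6 also without shARF replicate 5, with an adjusted p from 0.00273 to 0.0956 across 14 alternatives for TIGAR and an adjusted p from 0.00730 to 0.0924 across 14 alternatives for SUSD6. Beyond a log2 fold change of 2 there were 0 members, against 3.19% of all genes. The median was 0.095 for the members (0.15 without shARF replicate 1) and 0 for all genes. Some members that were not called became called with 1 library left out, SESN1 and ASCC3 without Ctrl replicate 3, PLK3 without shARF replicate 5 and CDIP1 without Ctrl replicate 1.

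Under the drug, Both vs MLN called 3 members higher (9.68%) and 10 lower (32.3%), with 18 not called, against 11.8% and 20.6% of all genes. The median was −0.11 for the members and −0.080 for all genes, an order that turned without MLN replicate 2 (−0.060 and −0.079) and without Both replicate 3 (−0.085 and −0.090). The members' median was −0.17 without MLN replicate 1. The higher members were RRM2B, AEN and ASCC3. The lower members were TP53INP1, SUSD6, GADD45A, PHLDA3, DDB2, CDIP1, PLK3, PLK2, PIDD1 and SERPINB5, with log2 fold changes from −1.35 (TP53INP1) to −0.29 (SERPINB5). SUSD6 had the second largest fall (log2 fold change −0.95, SE 0.099, adjusted p = 0.00178). Beyond a log2 fold change of 2 there were 0 members, against 2.41% of all genes. The lower calls were fewer, 6, without MLN replicate 2 and also without MLN replicate 5, which bears on PLK3, SERPINB5 and CDIP1 in both cases, on PHLDA3 in the first and on PIDD1 in the second. Under median-of-ratios scaling, 5 members were higher and 9 lower with a median of −0.027, and over all genes the share of higher among called genes went from 36.4% to 51.4%. MDM4 was called higher without MLN replicate 1.

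The difference between the responses to MLN4924, Both vs shARF minus MLN vs Ctrl, was tested as the interaction term of a fit to all 12 libraries. It was positive in 5 members (16.1%) and negative in 11 (35.5%), with 15 not called, against 11.2% and 17.1% of all genes. The median was −0.19 for the members and −0.085 for all genes. Under median-of-ratios scaling 6 members were positive and 8 negative, and the medians were −0.095 and 0.0073. The positive members were KITLG, PLK2, MDM4, TIGAR and RRM2B, and those of KITLG and PLK2 exceeded 1 on the log2 scale. The 11 negative members were GADD45A, TP53INP1, PIDD1, CDIP1, SUSD6, SERPINB5, DDB2, PPM1D, TRIAP1, POLH and FDXR. They were of unlike kinds. GADD45A, PIDD1, SERPINB5, PPM1D and POLH rose in both drug comparisons and rose less in PC3-shp14ARF cells. DDB2 was lower in both and fell more there, and TP53INP1, SUSD6, TRIAP1 and CDIP1 were lower only in Both vs shARF by the calls. PPM1D, POLH, TRIAP1 and FDXR were higher in shARF vs Ctrl and were not called in Both vs MLN. BTG2 had the most negative value and was not called (interaction −1.25, SE 0.50, adjusted p = 0.0833), and PHLDA3 was close to the threshold (interaction −0.66, SE 0.23, adjusted p = 0.0509) and was called without shARF replicate 1. The number of positive members was 3 without Ctrl replicate 1, Ctrl replicate 2, MLN replicate 2, MLN replicate 5, shARF replicate 1, shARF replicate 5, Both replicate 2 or Both replicate 3, where the calls of MDM4 (adjusted p from 0.00410 to 0.0992 across 19 alternatives) and RRM2B (adjusted p from 0.00586 to 0.0864 across 19 alternatives) were lost. Among the negative members, FDXR (adjusted p from 0.0102 to 0.149 across 19 alternatives) and POLH (adjusted p from 0.0264 to 0.365 across 19 alternatives) lost their call when most of the libraries were left out in turn.

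**Figure D5:**
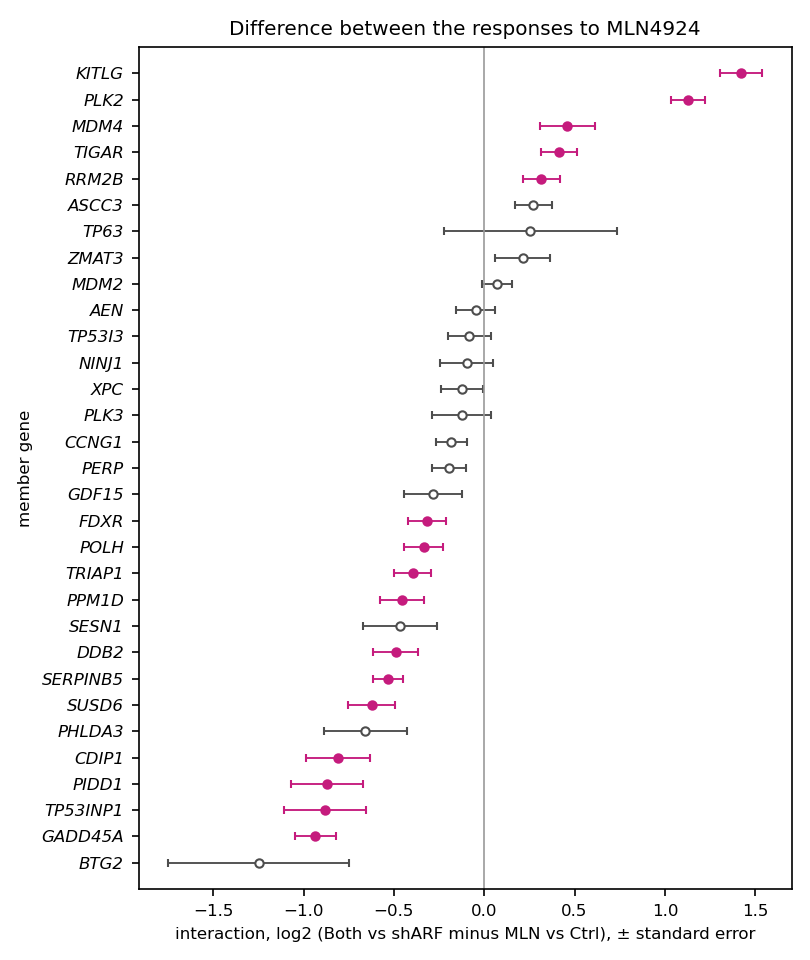
Interaction (Both vs shARF minus MLN vs Ctrl, log2) with its standard error for the 31 members tested, ordered by value; filled magenta points have an adjusted p below 0.05. KITLG and PLK2 are at 1.42 and 1.13, and GADD45A is the most negative of the called members at −0.94.

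Levels of the members spanned a wide range. Of the 31 members tested, 29 had a mean of at least 1 TPM in all 4 groups, 2 (TP63 and BTG2) were below 1 TPM in all, and 4 (GDF15, CCNG1, SERPINB5 and PERP) were above 100 TPM in all. The median coefficient of variation over the members was 7.25% in Ctrl, 4.89% in shARF, 8.08% in MLN and 7.73% in Both. The highest single values, 57.5% in Ctrl, 53.4% in shARF and 51.9% in Both, were those of BTG2, BTG2 and TP63. Whether the counting used the strand is not stated, and in the GENCODE annotation of GRCh38 an exon of 11 members is overlapped by a gene on the other strand (from 12 bases by PANO1 in PIDD1 to 785 in MDM2 and 1140 in XPC). In 3 members an exon is overlapped on the same strand, by 1711 bases in TIGAR, 598 in PHLDA3 and 439 in MDM2. Reads there cannot be assigned with certainty.

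Of 62 other known p53 targets, outside the 33, 57 were tested. In MLN vs Ctrl 26 were higher and 21 lower, and in Both vs shARF 23 and 22. As shares of the 57 these are 45.6%, 36.8%, 40.4% and 38.6%, against 32.2%, 29.4%, 28.3% and 32.8% of all genes. Those with the largest rise in MLN vs Ctrl were PRDM1, a transcriptional repressor, with 4.75 (adjusted p = 3.03e-06), SFN, the 14-3-3 sigma protein, with 2.90 (adjusted p = 1.50e-05), and SESN2, a relative of SESN1, with 2.69 (adjusted p = 3.39e-05). In Both vs shARF the log2 fold change of PRDM1 was 4.47 and that of SESN2 was 2.99. The largest falls in MLN vs Ctrl were those of STEAP3, a metalloreductase (−2.51), LIF, a cytokine (−1.95), and ITGA3, an integrin chain (−1.92). In shARF vs Ctrl 14 of the other targets were higher (24.6%) and 22 lower (38.6%), against 21.0% and 20.4% of all genes, and in Both vs MLN 5 were higher (8.77%) and 23 lower (40.4%), against 11.8% and 20.6%.

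Among 32 tested regulators and cofactors of the p53 family, 6 were higher and 17 lower in MLN vs Ctrl, and 7 were higher and 19 lower in Both vs shARF. As shares of the 32 these are 18.8%, 53.1%, 21.9% and 59.4%, against the same 32.2%, 29.4%, 28.3% and 32.8% of all genes. DAXX, which works with MDM2, rose by 1.25 and 1.19 on the log2 scale, and PPP1R13L, an inhibitor of p53 known as iASPP, had 1.14 and 1.03. The acetyltransferase gene KAT2B had −1.81 and −2.16, and NPM1, the nucleolar partner of p14ARF, had −0.97 and −1.18. HIPK2, a kinase that activates p53, had −1.78 in MLN vs Ctrl (adjusted p = 2.42e-05) and an interaction of 0.87 (adjusted p = 0.000277). In shARF vs Ctrl 11 of the regulators were higher (34.4%) and 5 lower (15.6%), against 21.0% and 20.4% of all genes. In Both vs MLN 6 were higher (18.8%) and 2 lower (6.25%), against 11.8% and 20.6% of all genes. Of the genes linked to p63, 2 were higher (9.09%) and 11 lower (50%) in shARF vs Ctrl, against the same 21.0% and 20.4%. In Both vs MLN 3 of them were higher (13.6%) and 7 lower (31.8%), against the same 11.8% and 20.6%.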

How the data were processed

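The treatment protocol gives the MLN4924 dose as 1 µM, the series' design text in mM. GEO lists 1 sample per condition, and the deposited table holds 3 columns for each, whose numbers (1, 2 and 5 for MLN, for example) are undescribed and are used here as replicate names. The authors trimmed and mapped reads to hg38 and quantified them on an Ensembl annotation in CLC Genomics Workbench, and the table the authors deposited gives TPM, scaled to the same total in each library. TPM gives no depth, so no counting interval was computed.

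For 19932 genes whose mean over the libraries reached 0.1 TPM, log2(TPM + 0.1) was analysed with the limma package (3.58.1, R 4.3.3; lmFit and eBayes, trend on), and p-values were adjusted by Benjamini-Hochberg across these genes. The pairwise comparisons were fitted to their 6 libraries and the interaction to all 12. No library pair was identical, and r of log2 values was 0.975 to 0.980 within conditions and 0.889 to 0.959 between them. The fits were tested on simulated libraries.

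The members and lists were chosen with earlier results of these data known. Members with a log2 difference beyond 1 at an adjusted p below 0.05 in any comparison, the family members and MDM2 are given in every library; of the other lists, at most 3 each way with a mean of at least 1 TPM are named. Promoter windows are from RefSeq (GRCh38.p14) and gene positions from GENCODE. One marker fixed for the line is not reported here. Alternatives changed the pseudocount (1 or 0.01), the filter (1 TPM or none), the scaling (median of ratios), the trend (off), the fit (12 libraries together, or with the column number as a replicate block) and the libraries (1 left out at a time).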

Additional observations from a re-analysis of the deposited data

Results flagged for a closer look

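In 16 of the 31 members tested, the response to MLN4924 differed between PC3-shp14ARF and PC3 cells by a test of the difference itself (limma interaction over the 12 libraries, adjusted p below 0.05), 5 with a positive and 11 with a negative difference, against 11.2% and 17.1% of all genes. The values are Both vs shARF minus MLN vs Ctrl on the log2 scale. Groups of 3 libraries were not searched for outlying samples.

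The difference was positive in 5 members, 1.42 in KITLG, 1.13 in PLK2, 0.46 in MDM4, 0.41 in TIGAR and 0.32 in RRM2B. In KITLG and PLK2 the shARF libraries were the lowest of all conditions, and in TIGAR they were also below Ctrl, while RRM2B was higher in shARF than in Ctrl. The difference was negative in 11 members. It was −0.94 in GADD45A, −0.87 in PIDD1, −0.53 in SERPINB5, −0.46 in PPM1D and −0.34 in POLH, all of which rose in both drug comparisons. It was −0.32 in FDXR, which was called only in PC3 cells. It was −0.88 in TP53INP1, −0.81 in CDIP1, −0.62 in SUSD6 and −0.40 in TRIAP1. These were lower under the drug only in PC3-shp14ARF cells by the calls. The difference was −0.49 in DDB2, which was lower in both. PPM1D, POLH, TRIAP1 and FDXR were higher in shARF vs Ctrl (log2 fold change 0.48, 0.34, 0.56 and 0.20). They were not called in Both vs MLN (0.026, 0.0013, 0.16 and −0.12), where the other negative members were lower. The shARF libraries enter both the interaction and shARF vs Ctrl. Under median-of-ratios scaling the values of TRIAP1, FDXR and POLH were no longer past the threshold. These differences sit beside a change in scale between conditions, since the median interaction of all genes was −0.085 in the main scaling and 0.0073 under median-of-ratios scaling, and its part in the negative values was not tested.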

How the results depend on the processing

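Over the 5 comparisons, the values of single members under the alternatives numbered 2253. Of these, 2095 kept their side of the threshold, 122 lost a call, 36 gained one and 0 called values changed sign. Changes of sign in values called neither in the main fit nor in the alternative were not counted. Of 92 called member results, 47 held under every alternative, 17 were lost under at least 1 alternative other than the replicate block, and the rest were lost only under that block. With a replicate block, MLN vs Ctrl had 9 members higher and 2 lower, shARF vs Ctrl 0 and 0 (7757 of all genes at an unadjusted p below 0.05 by limma, and 0 at the adjusted threshold), and the interaction 3 positive and 4 negative. The block was fitted only where conditions share at least 2 numbers. All libraries of the comparison entered, but in each pairwise case only the 4 with shared numbers inform the difference. Little is then left to estimate the spread from. Same-numbered libraries deviated together with r between −0.046 and 0.022, so no shared deviation by number is seen in these values. Deviations from the mean of 3 libraries sum to 0 within a condition. Whether same-numbered libraries shared a culture or batch can therefore not be told from them. Beyond a log2 fold change of 2, Both vs shARF had 1 member, PLK3, at a pseudocount of 0.01 and 1 under median-of-ratios scaling, and 0 to 1 with each replicate left out. Under median-of-ratios scaling Both vs MLN had 5 members higher (and 9 lower), and 53.5% of the genes with a called interaction were positive in place of 39.5%. When 1 replicate at a time was left out, the members higher and lower numbered 17 to 18 and 5 to 6 in MLN vs Ctrl, 13 to 15 and 9 to 9 in Both vs shARF, 10 to 12 and 4 to 7 in shARF vs Ctrl, 3 to 4 and 6 to 9 in Both vs MLN, and 3 to 5 and 9 to 11 in the interaction. The other alternatives left each of these counts within 1.5 times the main value. TPM carries no depth, so how far counting error limits BTG2, TP63 and the members listed at 0 cannot be given.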
